A study of Mus musculus with 9 samples.

Results

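The 31 genes described here mark endothelial cells, the cells that line blood and lymph vessels, and the kinds of vessel they form. They were chosen by symbol, and all 31 were found once among the 57010 gene identifiers of each of 2 comparison tables. By the vessel they are best known from, 20 were taken as pan-endothelial, 5 as capillary, 3 as lymphatic and 3 as venous or large-vessel genes. RNA came from 9 mouse libraries in 3 groups of 3: small cell lung cancer (SCLC) organoids treated with an agent that the labels call only GSK (GSK), SCLC organoids without it (SCLC), and organoids of normal lung (Normal). Organoids are small tissue-like bodies grown from cells in culture. The labels used here name no genotype, strain, age, dose or time, and do not say whether replicates came from separate cultures. The p-values therefore set each difference only against the variation that the authors' fit estimated from these libraries.

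Endothelial cells are held together by junction proteins such as VE-cadherin, and they survive and sprout under signals from the vascular endothelial growth factors (VEGFs), the angiopoietins, apelin and adrenomedullin. Their identity is set by transcription factors of the ETS and SoxF families. In the lung, the alveolar capillary bed holds a general type of capillary cell, marked by Gpihbp1 and Aplnr, and an aerocyte type for gas exchange, marked by Car4, Ednrb and Apln. Organoids grown from epithelial or tumour cells do not as a rule contain vessels.

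The deposited values compare 3 libraries with 3 and give none for any one library, so whether replicates overlap could not be seen. Levels below are group means in normalized counts, worked out from the mean and the fold change that the authors give, and fold changes are log2 values ± the authors' standard error (SE). A gene was called where the authors' adjusted p was under 0.05. Where a group lay under a floor of 3 counts over its 3 libraries, a mean of 1, the fold was computed against that floor and is given as a lower bound; it uses the higher mean without its error. The implied total per library, in units of 1000000 normalized counts, was 31.9 for GSK and 45.3 for SCLC in one table, and 42.0 for SCLC and 44.7 for Normal in the other, from the authors' deposited tables. Both comparisons share the SCLC libraries.

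All 31 vessel genes rose in GSK against SCLC, where 21.6% of 28376 genes tested were called higher, per the authors' deposited table. Over the 20 genes above the floor in both groups, log2 fold changes ran between 1.96 and 11.01; the median over the 31 was 8.83, or 8.50 with bounded genes at their bound, against a median of 0.24 over all genes tested per the authors' deposited table. Of the 31, 26 had a log2 fold change of at least 5, also with bounded genes at their bound; 8.41% of the genes tested were called higher with a change of that size per the authors' deposited table. Summed over the 31 genes, the level was 55274 in GSK and 1897 in SCLC from the authors' deposited table. The median gene had 1260 in GSK and 2.97 in SCLC from the authors' deposited table. None of the 31 lay under the floor in GSK, while 11 did in SCLC, so those 11 had enough counts for a test through GSK alone, from the authors' deposited table.

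**Figure D1:**
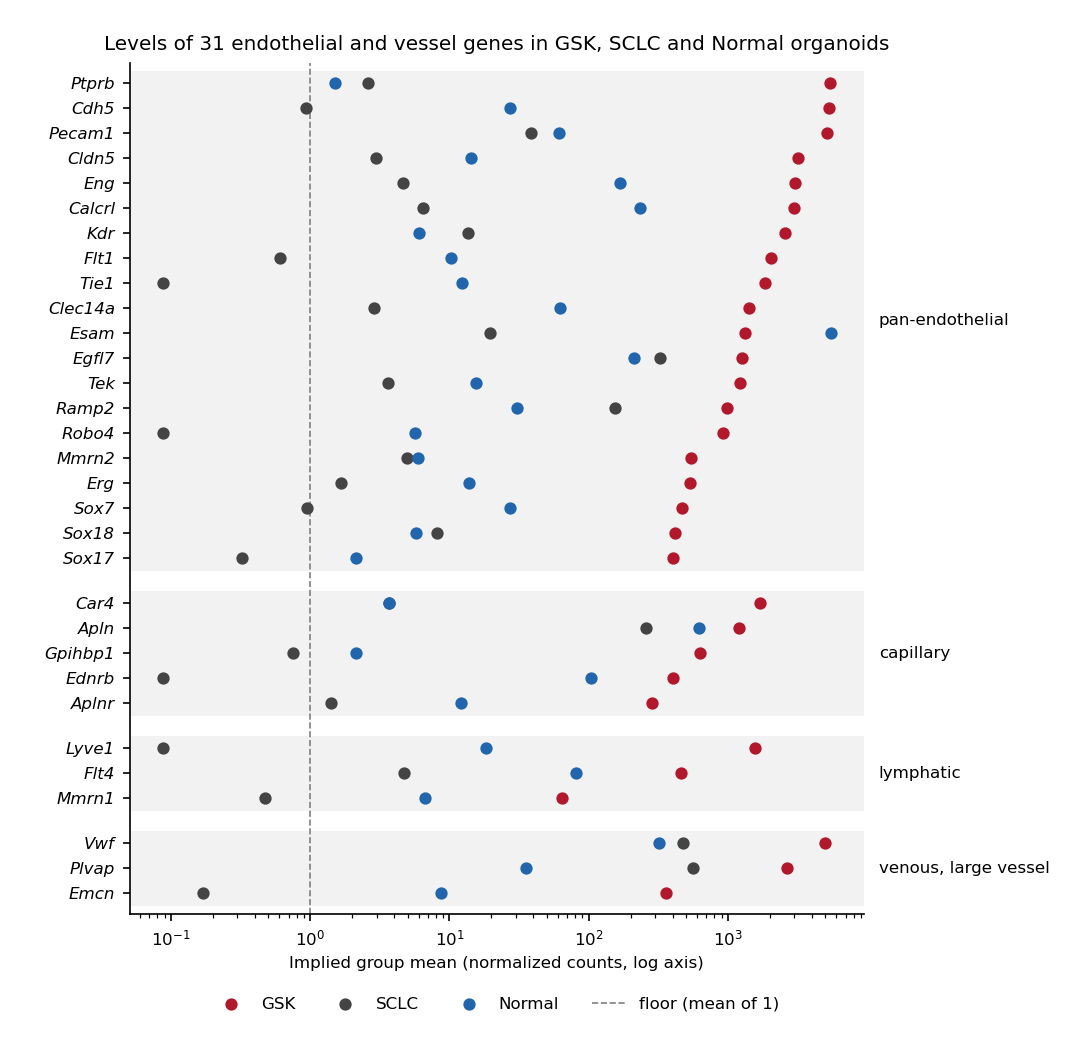
Implied group means of the 31 genes in normalized counts (log axis), one row per gene, grouped by vessel type, with GSK in red, SCLC in grey and Normal in blue; the dashed line is the floor, and for Car4 the points of SCLC and Normal coincide. GSK points run between 63.8 and 5414 and stand right of the SCLC point of the same gene in every row; Esam is the one gene whose Normal point is right of its GSK point.

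Genes of endothelial junctions and of the vessel wall rose in GSK. Cdh5, which encodes VE-cadherin, had 5311 in GSK and 0.933 in SCLC, so it was at least 5311-fold higher in GSK (adjusted p = 7.36e-51) per the authors' deposited table. Pecam1, the adhesion molecule CD31, had 5140 in GSK and 38.5 in SCLC and rose by 7.06 ± 0.83 (adjusted p = 5.37e-16) per the authors' deposited table. Claudin 5, a tight junction protein of endothelium, is encoded by Cldn5, which had 3159 in GSK and 2.97 in SCLC (10.05 ± 0.66, adjusted p = 9.43e-50) per the authors' deposited table. These 3 genes thus had between 3159 and 5311 in GSK and between 0.933 and 38.5 in SCLC. Ptprb, the phosphatase VE-PTP that acts on VE-cadherin and the Tie receptors, had the most normalized counts of the 31 in GSK, not set per length, at 5414, against 2.62 in SCLC (11.01 ± 1.33, adjusted p = 4.3e-15) per the authors' deposited table. Esam, a junctional adhesion molecule, had 1324 in GSK and 19.6 in SCLC (6.08 ± 0.58, adjusted p = 8.45e-24) per the authors' deposited table.

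Surface and matrix proteins of endothelium followed. Eng, which encodes endoglin, a co-receptor for ligands of the TGF-beta family, had 3042 in GSK and 4.62 in SCLC (9.36 ± 0.61, adjusted p = 1.76e-49) per the authors' deposited table. Clec14a, a lectin-like surface protein, had 1426 in GSK and 2.88 in SCLC, with the widest SE of the 31 (8.95 ± 1.60, adjusted p = 2.33e-07) per the authors' deposited table. Mmrn2, a matrix protein that binds Clec14a, had 547 in GSK and 4.93 in SCLC (6.79 ± 0.69, adjusted p = 6.21e-21) per the authors' deposited table. Robo4, a guidance receptor that stabilises vessels, was at least 918-fold higher in GSK (adjusted p = 1.81e-22) per the authors' deposited table. Egfl7, a secreted factor of vessel tube formation, had 1260 in GSK and 324 in SCLC and the smallest rise of all (1.96 ± 0.54, adjusted p = 0.00142) per the authors' deposited table.

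The receptor tyrosine kinases of both vascular growth factor systems rose. Kdr, the main signalling receptor for VEGF-A (VEGFR2), had 2564 in GSK and 13.5 in SCLC (7.57 ± 0.65, adjusted p = 1.74e-29) per the authors' deposited table. Flt1, the decoy-like VEGFR1, had 2043 in GSK and 0.605 in SCLC, at least 2043-fold higher (adjusted p = 1.31e-33), per the authors' deposited table. Tek, the angiopoietin receptor Tie2, had 1215 in GSK and 3.60 in SCLC (8.40 ± 0.62, adjusted p = 1.1e-39) per the authors' deposited table. Tie1, its orphan partner, was at least 1837-fold higher in GSK (adjusted p = 1.44e-26) per the authors' deposited table. These 4 genes had between 1215 and 2564 normalized counts in GSK and at most 13.5 in SCLC. The 250 bases before the annotated start of each of these 4 genes are shown. Their joint rise in GSK does not set them apart, since all 31 genes rose. In SCLC against Normal, Kdr was not called while Tie1, Flt1 and Tek were called lower. The sequences are from RefSeq on GRCm38.p6, 5′ to 3′ on the strand of the gene. Capitals mark AGGAAG or its reverse complement, a form of the core bound by ETS factors. The windows lie at chr4:118489850-118490099 (minus strand) for Tie1, chr4:94739039-94739288 (plus) for Tek, chr5:147726012-147726261 (minus) for Flt1 and chr5:75978456-75978705 (minus) for Kdr.
Tie1: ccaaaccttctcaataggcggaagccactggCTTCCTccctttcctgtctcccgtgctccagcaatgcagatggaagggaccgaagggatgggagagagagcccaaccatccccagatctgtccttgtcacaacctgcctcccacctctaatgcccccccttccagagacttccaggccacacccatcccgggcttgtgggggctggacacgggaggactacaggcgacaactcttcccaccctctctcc
Tek: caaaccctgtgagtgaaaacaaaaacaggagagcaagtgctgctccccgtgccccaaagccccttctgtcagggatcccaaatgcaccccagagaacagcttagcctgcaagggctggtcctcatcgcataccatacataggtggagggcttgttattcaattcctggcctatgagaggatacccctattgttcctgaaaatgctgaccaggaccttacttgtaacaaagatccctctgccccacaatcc
Flt1: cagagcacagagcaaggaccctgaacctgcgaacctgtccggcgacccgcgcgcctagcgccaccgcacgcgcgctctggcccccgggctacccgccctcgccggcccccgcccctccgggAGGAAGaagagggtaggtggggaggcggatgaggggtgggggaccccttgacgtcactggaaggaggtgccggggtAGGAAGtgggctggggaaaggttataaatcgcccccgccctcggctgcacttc
Kdr: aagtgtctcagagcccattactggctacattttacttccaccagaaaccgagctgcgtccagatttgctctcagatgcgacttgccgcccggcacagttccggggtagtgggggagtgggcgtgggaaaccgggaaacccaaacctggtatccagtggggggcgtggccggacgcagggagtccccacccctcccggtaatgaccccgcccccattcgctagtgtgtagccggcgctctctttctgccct
Flt1 had 2 of these hexamers, Tie1 had 1, and Tek and Kdr had 0 in this window. The table held 21 promoters of 17 of the 31 genes, and 9 of these 17 genes had AGGAAG on either strand in at least one promoter (Egfl7, Eng, Calcrl, Emcn, Tie1, Flt1, Robo4, Erg and Apln). By promoter it was 10 of 21, against 29.5% of 32851 windows of the same length. The related hexamer CGGAAG, also searched on both strands, differs from AGGAAG in its opening letter and can overlap it at its end; it was in 2 of the 21 promoters and in 13.6% of all, and ACAAAG, a form of the Sox core, in 4 of the 21 and in 16.5% of all. A match describes the letters only.

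The SoxF and ETS transcription factors of endothelium were higher in GSK as well. Erg, an ETS factor that keeps endothelial identity, had 529 in GSK and 1.67 in SCLC (8.31 ± 0.71, adjusted p = 3.6e-29) per the authors' deposited table. Sox18 had 416 in GSK and 8.18 in SCLC (5.67 ± 0.70, adjusted p = 1.08e-14) per the authors' deposited table. In GSK, Sox7 rose at least 465-fold (adjusted p = 2.17e-27) and Sox17, known from arteries, at least 404-fold (adjusted p = 3.17e-16), per the authors' deposited table. The levels of these 4 factors in GSK fell between 404 and 529 normalized counts.

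The adrenomedullin receptor is a pair of the receptor Calcrl and its partner Ramp2, and these partners differed in SCLC. Calcrl had 2967 in GSK and 6.41 in SCLC (8.85 ± 0.58, adjusted p = 2.45e-50) per the authors' deposited table. Ramp2 had 981 in GSK and 156 in SCLC (2.66 ± 0.59, adjusted p = 4.27e-05) per the authors' deposited table. Per kilobase of exon, SCLC had 47.2 normalized counts of Ramp2 and 1.31 of Calcrl, and GSK had 297 of Ramp2 and 608 of Calcrl, from the authors' deposited table.

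All 5 capillary genes rose in GSK per the authors' deposited table, with a median log2 fold change of 8.83, or 8.65 with bounded genes at their bound. Car4, a carbonic anhydrase on aerocytes, had 1685 in GSK and 3.71 in SCLC (8.83 ± 0.54, adjusted p = 2.95e-56) per the authors' deposited table; its statistic ranked 16 of the 28376 genes tested, the highest rank of the 31. Gpihbp1, which holds lipoprotein lipase on capillary walls, was at least 627-fold higher in GSK (adjusted p = 7.23e-26) per the authors' deposited table. Ednrb, an endothelin receptor of aerocytes, was at least 402-fold higher (adjusted p = 7.36e-20) per the authors' deposited table. Markers of the aerocyte and of the general capillary cell were thus both measured in GSK. Aplnr, the apelin receptor, had 287 in GSK and 1.42 in SCLC (7.66 ± 0.97, adjusted p = 6.04e-14), while its ligand gene Apln had 1202 in GSK and 259 in SCLC (2.21 ± 0.43, adjusted p = 2.77e-06), per the authors' deposited table.

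The 3 lymphatic genes rose in GSK per the authors' deposited table, but they do not mark lymph vessels alone. Lyve1, a hyaluronan receptor that some macrophages also carry, had at least 1567 times its SCLC level (adjusted p = 1.01e-25) per the authors' deposited table. Flt4, the VEGF-C receptor VEGFR3, had 463 in GSK and 4.73 in SCLC (6.61 ± 0.90, adjusted p = 4.17e-12) per the authors' deposited table. Mmrn1, a multimerin also stored in platelets, was at least 63.8-fold higher (adjusted p = 1.04e-10) per the authors' deposited table, and its 63.8 in GSK was the lowest of the 31, also per kilobase of exon. Prox1, the defining transcription factor of lymphatic endothelium, is also made by neuroendocrine cells, and had 11092 in GSK and 12914 in SCLC (-0.22 ± 0.28, adjusted p = 0.589) per the authors' deposited table. Ccl21a, a chemokine of lymphatic endothelium whose count is uncertain because near-identical copies can share its reads, was at least 125-fold higher in GSK (adjusted p = 4.12e-13) per the authors' deposited table.

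Of the 3 venous and large-vessel genes, all higher in GSK per the authors' deposited table, 2 were already abundant in SCLC. These 3 genes do not mark veins and large vessels alone, since Emcn is also known from capillaries. Vwf, the clotting factor stored in endothelial granules, had 4981 in GSK and 475 in SCLC (3.39 ± 0.70, adjusted p = 1.13e-05) per the authors' deposited table. Plvap, the protein of fenestral diaphragms, had 2672 in GSK and 560 in SCLC (2.25 ± 0.50, adjusted p = 4.5e-05) per the authors' deposited table. Emcn, a sialomucin of veins and capillaries, was at least 361-fold higher in GSK (adjusted p = 1.27e-15) per the authors' deposited table. Vwf, Plvap, Egfl7, Apln and Ramp2 were the 5 genes with at least 100 normalized counts in SCLC, and made up 93.5% of the sum over the 31 genes there, from the authors' deposited table. They were also the 5 with a log2 fold change under 5 in GSK against SCLC. The calls of Egfl7 and Plvap ended when a log2 change above 1 was asked for (adjusted p = 0.378 and 0.0839).

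**Figure D2:**
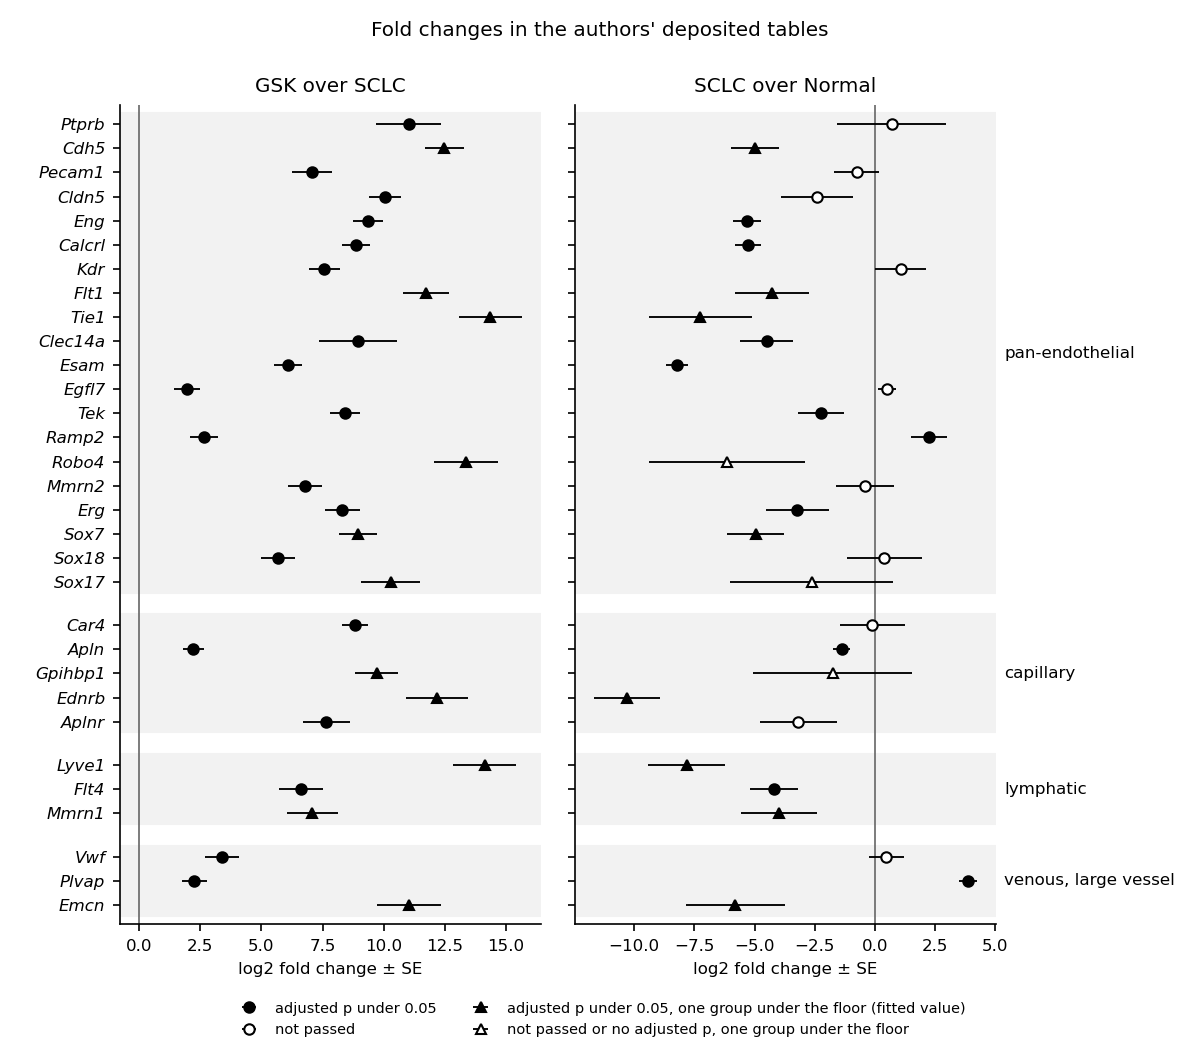
Log2 fold changes of the 31 genes ± the authors' SE (x axes), for GSK over SCLC on the left and SCLC over Normal on the right, one row per gene; filled symbols passed an adjusted p under 0.05, and triangles mark genes with one group under the floor, whose plotted value is a fitted one. All 31 points on the left are positive, with Egfl7 lowest at 1.96; on the right 16 filled points are negative, and Ramp2 and Plvap are the filled points above 0.

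Per kilobase of exon (gene lengths from GENCODE M21), the order of levels in GSK was led by Cldn5 with 2231 normalized counts per kilobase, Plvap with 1345, Cdh5 with 1264, Car4 with 857 and Pecam1 with 825, from the authors' deposited table. The lowest were Emcn with 66.8, Flt4 with 56.3 and Mmrn1 with 10.9 normalized counts per kilobase in GSK. In SCLC the same scale was led by Plvap with 282, Egfl7 with 90.4 and Apln with 82.3, from the authors' deposited table. In Normal it was led by Esam with 1904, Apln with 198 and Egfl7 with 59.2, from the authors' deposited table. No spread between libraries is known for these levels, so neighbours in an order were not told apart.

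**Figure D3:**
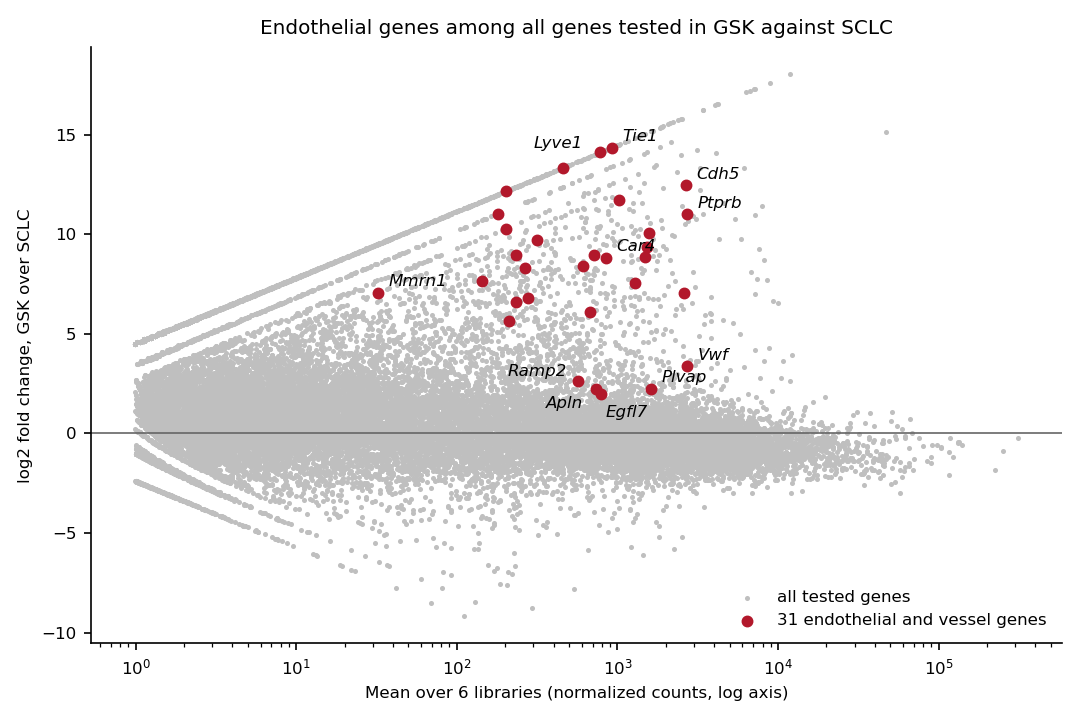
Log2 fold change of GSK over SCLC (y axis) against the mean over 6 libraries in normalized counts (log x axis) for the 28376 genes with an adjusted p, in grey, with the 31 vessel genes in red and some named. The upper grey diagonal holds genes at or near 0 in SCLC, among them Tie1 and Lyve1; the 26 genes with a change of at least 5 stand apart from Ramp2, Apln, Egfl7, Plvap and Vwf.

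Endothelial genes outside the 31 rose too. Of 27 listed, 22 rose, 0 fell, 4 did not pass and Fli1, an ETS factor with 1756 in GSK and 200 in SCLC, had no adjusted p, per the authors' deposited table. Cd93, a C-type lectin of endothelial and myeloid cells, was at least 4255-fold higher, Gimap6 at least 1999-fold and Myct1 at least 282-fold, per the authors' deposited table. The sphingosine phosphate receptor gene S1pr1 had 2515 in GSK and 1.07 in SCLC (11.20 ± 0.76, adjusted p = 1.57e-46) per the authors' deposited table. Of 19 further artery, vein and lymphatic genes, 13 rose, 1 fell and 5 did not pass per the authors' deposited table. Selp and Sele, the selectins of activated endothelium, were at least 128-fold and 39.2-fold higher, and Vcam1, an adhesion molecule for leukocytes, at least 491-fold, per the authors' deposited table. The gene that fell was Nr2f2, a vein-specifying factor that other cells also make, with 1469 in GSK and 4542 in SCLC (-1.63 ± 0.30, adjusted p = 9.03e-07) per the authors' deposited table.

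The ligands of these receptors were mixed. Of 19 listed, 11 rose, 2 fell, 4 did not pass and 2 had no adjusted p per the authors' deposited table. Vegfa, which acts on Kdr and Flt1, had 4315 in GSK and 1498 in SCLC (1.53 ± 0.29, adjusted p = 1.62e-06), and Vegfb, a ligand of Flt1, fell to 1598 in GSK, against 3775 in SCLC (-1.24 ± 0.29, adjusted p = 0.000128), per the authors' deposited table. Pgf, another ligand of Flt1, rose by 1.82 ± 0.68 (adjusted p = 0.0239), and Vegfc, a ligand of Flt4, had 0.80 ± 0.82 (adjusted p = 0.481), per the authors' deposited table. Vegfd, another VEGF gene of the list, rose by 2.95 ± 0.65 (adjusted p = 4.22e-05) per the authors' deposited table. Of the Tek ligands, Angpt2, which endothelial cells themselves release, rose by 3.11 ± 0.65 (adjusted p = 1.19e-05), and Angpt1 had 1.23 ± 0.73 (adjusted p = 0.184), per the authors' deposited table. The adrenomedullin gene Adm rose by 3.08 ± 0.88 (adjusted p = 0.00204) per the authors' deposited table. Edn1 and Edn3, which encode endothelins, rose as well, Edn1 by at least 391-fold (adjusted p = 6.37e-18) and Edn3 by 3.41 ± 0.82 on the log2 scale (adjusted p = 0.000197), per the authors' deposited table. Pdgfb, which draws mural cells to vessels, had 1012 in GSK and 2.25 in SCLC (8.81 ± 0.72, adjusted p = 4.64e-32), and Tgfb1 had 2350 in GSK and 138 in SCLC (4.09 ± 0.71, adjusted p = 9.9e-08), per the authors' deposited table.

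Markers of other cell types of tissue moved with the vessel genes in GSK. Of 8 blood and macrophage markers all 8 rose, with a summed level of 120162 in GSK and 128 in SCLC, of which the lysozyme gene Lyz2 gave 94202 in GSK and 2.64 in SCLC, from the authors' deposited table. Ptprc, the pan-leukocyte gene CD45, was at least 12562-fold higher, and Adgre1, a macrophage gene, at least 1293-fold, per the authors' deposited table. All 7 fibroblast markers rose (sum 14115 in GSK and 26.0 in SCLC), and 9 of 10 mural cell markers rose (sum 5188 in GSK and 477 in SCLC), per the authors' deposited table. The mural marker with the highest mean over the 6 libraries was Des (1314), which rose by 2.41 ± 0.54 (adjusted p = 5.11e-05) per the authors' deposited table. The collagen gene Col3a1 rose by 10.68 ± 0.74 and the pericyte genes Pdgfrb and Rgs5 by 8.04 ± 0.67 and 7.80 ± 0.62, per the authors' deposited table. Of 7 megakaryocyte and platelet markers, 4 rose (Ppbp, Treml1, Gp9 and Pf4), 2 did not pass and Gp1bb was listed at 0 (sum 649 in GSK and 203 in SCLC), per the authors' deposited table. Mesothelial markers had a sum of 123 in GSK and 27.2 in SCLC, with 2 of 4 higher, per the authors' deposited table.

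Of 10 alveolar epithelial markers, 8 rose in GSK and Aqp5, a water channel gene, fell by 4.59 ± 0.63, per the authors' deposited table. Cav1 and Clic5, which lung endothelium also makes, rose by 9.78 ± 0.61 and 10.14 ± 0.76, per the authors' deposited table. The neuroendocrine markers stayed abundant, with a sum of 112954 in GSK and 218539 in SCLC; 5 of 9 fell and 1 rose per the authors' deposited table. The transcription factor gene Insm1 had 17354 in GSK and 66876 in SCLC (-1.95 ± 0.27, adjusted p = 7.72e-12) per the authors' deposited table. The libraries labelled GSK therefore held RNA of endothelial, blood, fibroblast and mural genes beside that of tumour cells, although the study's design text calls all groups organoids. The part of these other cell types in the rise of the vessel genes was not tested. In bulk RNA, more cells of a type and more RNA per cell cannot be told apart.

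**Figure D4:**
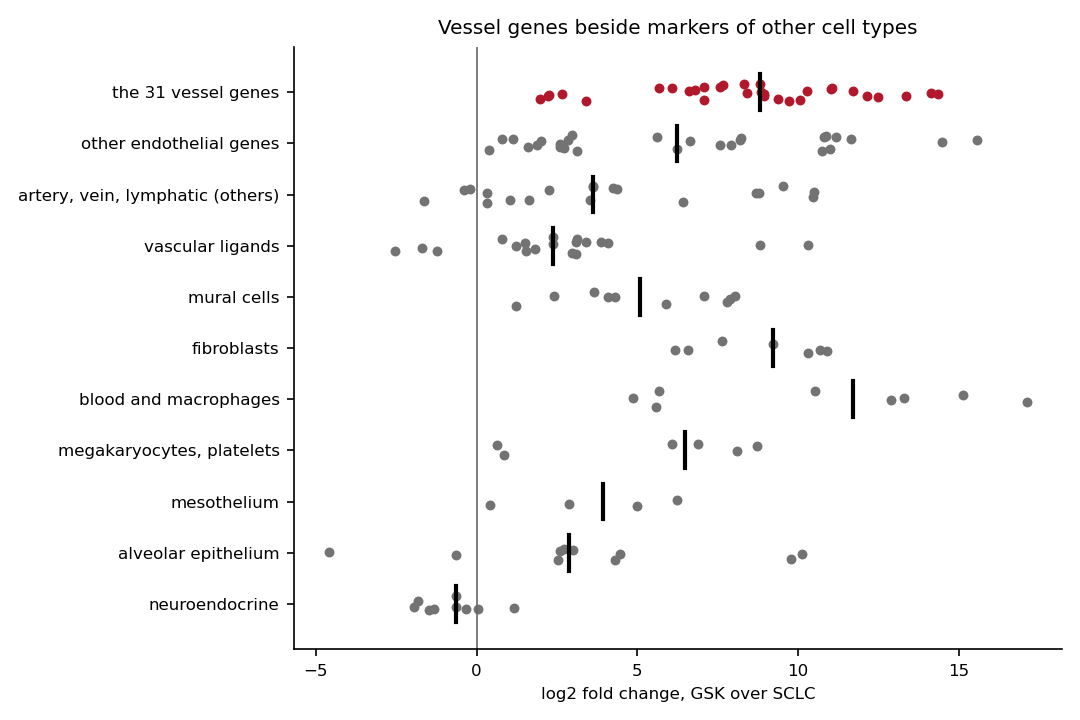
Log2 fold change of GSK over SCLC (x axis) for the 31 vessel genes, in red, and for the genes of 10 other lists, in grey, one row per list; black bars are medians and points are spread vertically for sight only. Values of genes with SCLC under the floor are fitted ones. The median of the 31 is 8.83, that of blood and macrophage markers 11.71 and that of fibroblast markers 9.23, while that of the neuroendocrine markers is -0.64.

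SCLC organoids against Normal gave a smaller and mixed picture. Of 30 vessel genes with an adjusted p, 16 fell, 2 rose and 12 did not pass per the authors' deposited table, where 25.1% of 24719 genes tested were called lower and 25.3% higher. Sox17 had no adjusted p, with 0.347 in SCLC and 2.15 in Normal from the authors' deposited table. The median log2 fold change over the 31 was -3.18, or -2.49 with bounded genes at their bound, against 0.10 over all genes tested per the authors' deposited table. The summed level was 1762 in SCLC and 7585 in Normal, and 17 of the 31 genes had under 20 normalized counts in Normal, from the authors' deposited table. Esam alone made up 71.9% of the Normal sum.

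Esam fell to 18.3 in SCLC, against 5457 in Normal (-8.22 ± 0.45, adjusted p = 6.46e-71), per the authors' deposited table. Per kilobase of exon, Esam stood above Cdh5 in Normal (1904 against 6.48 normalized counts). In GSK it stood below Cdh5 (462 against 1264), from the authors' deposited table. Cdh5 itself had 0.851 in SCLC and 27.2 in Normal, at least 27.2-fold lower in SCLC (adjusted p = 2.2e-06), per the authors' deposited table. Eng fell to 4.25 in SCLC, against 168 in Normal (-5.30 ± 0.58, adjusted p = 5.96e-19), and Calcrl to 5.95 in SCLC, against 232 in Normal (-5.28 ± 0.53, adjusted p = 5.51e-22), per the authors' deposited table. Per kilobase of exon in Normal, Esam had 1904 normalized counts, Calcrl 47.5, Eng 41.4 and the defining junction gene Cdh5 6.48, from the authors' deposited table. Clec14a fell by 4.50 ± 1.12 (adjusted p = 0.000178), with 2.75 in SCLC and 62.4 in Normal, per the authors' deposited table. Tie1 was at least 12.3-fold lower (adjusted p = 0.0018), Flt1 at least 10.3-fold lower (adjusted p = 0.0125) and Sox7 at least 27.2-fold lower in SCLC (adjusted p = 7.61e-05) per the authors' deposited table. Weaker calls were those of Tek and Erg: Tek fell by 2.23 ± 0.95 (adjusted p = 0.0388) and Erg by 3.22 ± 1.30 (adjusted p = 0.0288), both with means under 20 in Normal, per the authors' deposited table.

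Ramp2, the partner of Calcrl, rose to 145 in SCLC, against 30.6 in Normal (2.24 ± 0.74, adjusted p = 0.00625), per the authors' deposited table. Of the 19 pan-endothelial genes with an adjusted p, 10 fell, 1 rose and 8 did not pass in SCLC against Normal, per the authors' deposited table. Pecam1 had 36.2 in SCLC and 61.0 in Normal, with a 95% interval of the log2 difference from -2.60 to 1.08, and Egfl7 had 300 in SCLC and 212 in Normal, with one from -0.23 to 1.23, from the authors' deposited table. Kdr, with 12.7 in SCLC, had a log2 difference of 1.08 ± 1.06 (adjusted p = 0.411) per the authors' deposited table. Cldn5, Sox18, Robo4, Mmrn2 and Ptprb had adjusted p-values between 0.104 and 0.857, and none of them exceeded 14.3 normalized counts in SCLC or Normal, per the authors' deposited table.

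Among capillary genes, Ednrb was at least 103-fold lower in SCLC (adjusted p = 3.67e-13), with 103 in Normal, per the authors' deposited table. Apln fell to 238 in SCLC, against 624 in Normal (-1.39 ± 0.37, adjusted p = 0.000486), per the authors' deposited table. Car4, Gpihbp1 and Aplnr did not pass (adjusted p = 0.952, 0.684 and 0.086) per the authors' deposited table, and their levels were at most 3.40 in SCLC and 12.1 in Normal. The 3 lymphatic genes fell per the authors' deposited table. Flt4 fell to 4.44 in SCLC, against 81.2 in Normal (-4.19 ± 1.01, adjusted p = 0.000108). Lyve1 fell by at least 18.3-fold (adjusted p = 4.63e-06) and Mmrn1 by at least 6.73-fold (adjusted p = 0.0247). Lymphatic genes outside these 3 were mixed in SCLC against Normal by the authors' test. Prox1, also made by neuroendocrine cells, rose (9.80 ± 0.44, adjusted p = 6.85e-108), as did Reln (4.14 ± 1.15, adjusted p = 0.000947). Pdpn (-7.57 ± 0.61, adjusted p = 4.79e-34) and Foxc2 (-6.41 ± 1.60, adjusted p = 0.000196) fell, and Ccl21a had no adjusted p. All 10 alveolar epithelial markers fell as well, and which cells the Pdpn and Reln RNA came from was not tested.

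Of the 3 venous and large-vessel genes, 1 rose, 1 fell and 1 did not pass in SCLC against Normal per the authors' deposited table. Plvap rose to 520 in SCLC, against 35.7 in Normal (3.87 ± 0.37, adjusted p = 1.6e-24), per the authors' deposited table, and was the vessel gene with the largest rise in that comparison. Vwf had 443 in SCLC and 318 in Normal (0.48 ± 0.71, adjusted p = 0.597) per the authors' deposited table. Emcn was at least 8.77-fold lower in SCLC (adjusted p = 0.0108) per the authors' deposited table. Of the 31 genes, 11 lay under the floor in SCLC and 20 above it, from the authors' deposited table. Flt1, Tek, Erg, Emcn and Mmrn1 were no longer called lower at an adjusted p of 0.01, and with a change above 1 asked for, the calls of Apln and Ramp2 ended too (adjusted p = 0.690 and 0.283).

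Other lists were set beside these falls, where 25.1% of all genes tested were called lower and 25.3% higher. Of the 27 other endothelial genes, 11 fell, 4 rose, 9 did not pass and 3 had no adjusted p in SCLC against Normal per the authors' deposited table. The 4 that rose were Arhgef15 (5.44 ± 0.71), Fli1 (4.65 ± 1.01), Nos3 (3.19 ± 0.87) and Rasip1 (2.78 ± 0.60), per the authors' deposited table. Adgrf5, an adhesion receptor that alveolar epithelium also makes, had 3.39 in SCLC and 22656 in Normal (-12.70 ± 0.44, adjusted p = 2.35e-177) per the authors' deposited table. Fibroblast markers had a sum of 24.1 in SCLC and 9151 in Normal, and mural cell markers one of 445 in SCLC and 1836 in Normal, from the authors' deposited table. Of the 10 mural cell markers 6 fell and 4 did not pass, among them Des (1.42 ± 0.68, adjusted p = 0.069), per the authors' deposited table. Of 8 blood and macrophage markers 7 fell, and their sum was 119 in SCLC and 110145 in Normal, most of it Lyz2, which alveolar type II cells also make, with 2.47 in SCLC and 108056 in Normal, from the authors' deposited table. Of 4 mesothelial markers 2 fell and 2 did not pass, and their sum was 25.4 in SCLC and 22766 in Normal, nearly all of it Msln, with 7.82 in SCLC and 22735 in Normal, from the authors' deposited table. Platelet markers summed to 188 in SCLC and 429 in Normal, with 1 of 7 lower, and all 9 neuroendocrine markers rose, per the authors' deposited table. Of the 19 artery, vein and lymphatic genes, 9 fell, 5 rose, 3 did not pass and 2 had no adjusted p, per the authors' deposited table. Of the 19 ligands, 10 fell, 2 rose, 4 did not pass and 3 had no adjusted p, per the authors' deposited table. Alveolar epithelial markers fell in 10 of 10 cases per the authors' deposited table. The part of these cell types in the falls of the vessel genes was not tested. Vegfa fell to 1396 in SCLC, against 37042 in Normal (-4.73 ± 0.36, adjusted p = 9.95e-38), while Vegfb rose by 1.46 ± 0.20 (adjusted p = 5.65e-12), per the authors' deposited table.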

How the data were processed

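RNA of 9 mouse libraries was sequenced as paired reads with a stranded mRNA kit, per the labels' protocols. The submitters' processing notes name STAR 2.7.9a and the build GRCm39; the counting tool, the annotation release and the tool for differential expression were not given in the sources used here. The authors deposited 2 comparison tables whose columns carry DESeq2's names, per the file headers: a signal column with the mean of normalized counts over 6 libraries, a log2 fold change with its standard error, a score column (fold change divided by its standard error), and a p-value with its adjusted p-value. No column held a single library, so edgeR was not run, no depth per library was known, and the precision is that of the authors' standard errors.

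Group means were implied from the mean and the fold change with 3 libraries per group. The control of the table with GSK is named Ctrl only: over 13634 genes whose mean reached 50 in each table, its implied mean matched that of SCLC in the other table (log2 ratio 0.109, SD 0.00837) and was taken as SCLC. The tables were scaled separately, so levels of GSK and Normal were set side by side without a test.

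The test was the authors' adjusted p under 0.05. Intervals are 1.96 standard errors to either side. The floor was 3 counts per group and covers counting error only. Levels per kilobase used exon lengths of GENCODE M21 (GRCm38), matched by gene identifier; promoter sequences are from RefSeq (GRCm38.p6). Members and lists were chosen with earlier results of these data known. All 31 genes are named; of the 10 other lists up to 4 genes with the largest change among those called in a comparison could be named, plus Vegfa, Vegfb, Vegfc, Pgf, Angpt1, Angpt2 and Adm. Fli1, Nr2f2, Gp1bb, Vegfd, Reln, Arhgef15, Nos3, Rasip1 and Des were named after their values were seen. The functions were tested on simulated data. Tools were Python 3.11.15, pandas 2.3.3, numpy 2.4.6 and scipy 1.17.1.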

Additional observations from a re-analysis of the deposited data

How the results depend on the processing

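The 6 alternatives were a threshold of 0.01, adjustment over every gene with a p-value, a mean of at least 10, scaling to total counts, scaling to the median gene with a mean of at least 100, and a test of an absolute log2 fold change above 1. No vessel gene with a value changed direction in either comparison under these 6. In GSK against SCLC all 31 calls held under the first 5, and under the last those of Egfl7 (adjusted p = 0.378) and Plvap (adjusted p = 0.0839) ended. The 2 scalings took a log2 ratio of -0.51 and -0.25 out of the fold changes of GSK against SCLC, and of -0.09 and 0.18 out of those of SCLC against Normal; all calls of vessel genes held under both.

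In SCLC against Normal the genes called lower numbered 16, but 9 when a mean of 10 was required, where 7 genes called lower have no value because fewer genes are tested, and 10 with a change above 1. With a mean of at least 10, pan-endothelial genes called lower numbered 6, lymphatic 1 and venous 0; the venous count was also 0 at a threshold of 0.01 and with a change above 1. With a change above 1, Plvap was the 1 gene called higher, no pan-endothelial gene (0) was called higher and 1 capillary gene was called lower. With a change above 1 the calls of Flt1, Tek, Emcn, Apln, Ramp2, Erg and Mmrn1 ended (adjusted p between 0.0706 and 0.690). Those of Flt1, Tek, Emcn, Erg and Mmrn1 ended at 0.01, and that of Tek after adjustment over every gene with a p-value (adjusted p = 0.0526); the cause was not tested. A floor of 10 counts lowered all 11 bounds in GSK against SCLC and 9 of 11 in SCLC against Normal; for Sox17 and Gpihbp1 both groups then lay under it, so no bound remained. Leaving out a replicate, a replicate block and another tool were not run, since they need values per library. No paired analysis was possible because the tables hold no column of a single library. Low levels limit that comparison, since 17 of the 31 genes had under 20 normalized counts in Normal.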
